A study of Mus musculus with 2 samples.

Results

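The nuclear lamins and the lamin B receptor are 4 of the 43346 Ensembl genes in the gene tables, and their 21 transcripts are part of 103639. They are Lmna, Lmnb1, Lmnb2 and Lbr, and were picked by name, not by a measured value. The tissue was the embryonic central nervous system at day 11.5, from mice of strain C57BL/6J. Each library was made from littermates of mixed sex, from polyadenylated RNA longer than 200 nt that had been depleted of ribosomal RNA, and was sequenced as paired reads with strand kept. There was 1 group with 2 biological replicates and no treatment, genotype or second tissue. No test between conditions could be run and no p-value is given. An SD over n = 2 measures only the spread between these samples.

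Lamins are intermediate filament proteins that form a meshwork under the inner nuclear membrane. The B-type lamins, the products of Lmnb1 and Lmnb2, keep a farnesyl lipid tail that holds them at the membrane, and mice that lack either gene have defects of neuronal migration and cortical layering. Lmna makes lamin A and lamin C by alternative splicing. Lamin A is made as prelamin A, which is farnesylated and then cleaved by the protease Zmpste24, whereas lamin C has no such tail. The lamin B receptor, Lbr, spans the inner nuclear membrane, binds B-type lamins and heterochromatin proteins, and is also a C14 sterol reductase of cholesterol synthesis. Developing tissues usually hold B-type lamins and Lbr early and gain A-type lamins as cells mature, and in neurons the microRNA miR-9 represses the lamin A message but not that of lamin C.

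Lamin A and lamin C part within exon 10 of Lmna, which is why this stretch is shown. In the lines below, lower case marks the 21 coding bases that both messages share at that point and capitals mark the 21 bases that each has for itself.
Lamin A: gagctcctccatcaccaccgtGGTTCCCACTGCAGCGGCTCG
Lamin C: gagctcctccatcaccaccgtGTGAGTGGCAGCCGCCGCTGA
Both are read 5′ to 3′ on the minus strand of chromosome 3, build GRCm38 (mm10), from GENCODE M21 transcripts. In the lamin A message, exon 10 lies at 88483318-88483413 and splices to exon 11 at 88482346-88482612 and then to exon 12 at 88481148-88482100. In the lamin C message the same exon runs on to 88483205, and its own coding bases end with the stop codon at the end of the capitals. Lamin A reads on for 294 bases to the end of its stop codon.

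The 3′ UTR of the lamin A message, in its last exon, carries a match to the seed of miR-9-5p. The much shorter 3′ UTR of lamin C does not, and the rest of that message was not searched. In the miRNA, capitals mark the seed, bases 2 to 8, and in the site they mark the letters ACCAAAG that pair with it.
miR-9-5p: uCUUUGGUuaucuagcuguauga
Lamin A site: tgtatctgccttaaaACCAAAGg
The miRNA sequence is RefSeq's (GRCm38.p6), and is the same for the 3 genes that encode it. The site lies in the 3′ UTR of Lmna in exon 12, at chr3:88481785-88481807 on the minus strand. The search was for ACCAAAG on the sense strand of each 3′ UTR. Lamin A's 926 nt held 1 match, and none was found in the 92 nt of lamin C, the 776 nt of Lmnb1, the 1656 and 1495 nt of the long Lmnb2 messages or the 1523 nt of Lbr. Of 44675 coding transcripts with a 3′ UTR, 9.51% held a match, and of 2546 with a 3′ UTR within 10% of lamin A's length, 8.01% did. A match is a description of letters, and no miRNA was measured here.

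Replicate 1 held 126358805 expected counts and replicate 2 held 111687579, of which Ensembl genes took 95.3% and 96.7%. Mitochondrial genes took 1.35% and 6.78% of the TPM (a level per length of message, scaled to a fixed sum per library). The labelled tissue carried its markers: all 7 listed neural progenitor markers and all 8 neuron markers reached 1 TPM in both libraries. Markers of other tissues were also present, and were uneven. Of 10 mesenchyme markers, 10 reached 1 TPM in both libraries, and their TPM summed to 769.7 in replicate 1 and 840 in replicate 2. The sum of 6 muscle markers was 122 and 545 TPM. In bulk tissue, fewer cells of a type and less RNA per cell cannot be told apart.

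Messages of B-type lamins and Lbr were abundant, and the Lmna message was the lowest of the 4. Lmnb1, which encodes lamin B1, had 270.1 TPM in the first replicate and 168 in the other (219 ± 72.5, SD, n = 2). Lmnb2, which encodes lamin B2, stood at 93.0 and 58.6 TPM (75.8 ± 24.3). Lbr stood at 72.1 and 61.3 TPM (66.7 ± 7.66). Its replicate 1 value includes 23.2 TPM of a short transcript, Lbr-207, that was listed at 0 in replicate 2 (described below). Lmna stood at 22.3 and 19.5 TPM (20.9 ± 2.01). Lmnb1 was the highest and Lmna the lowest in both libraries, with no overlap with the other members. Lmnb2 and Lbr did not differ beyond their spread: Lmnb2 was 1.29 times Lbr in replicate 1 and 0.956 times in replicate 2.

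**Figure D1:**
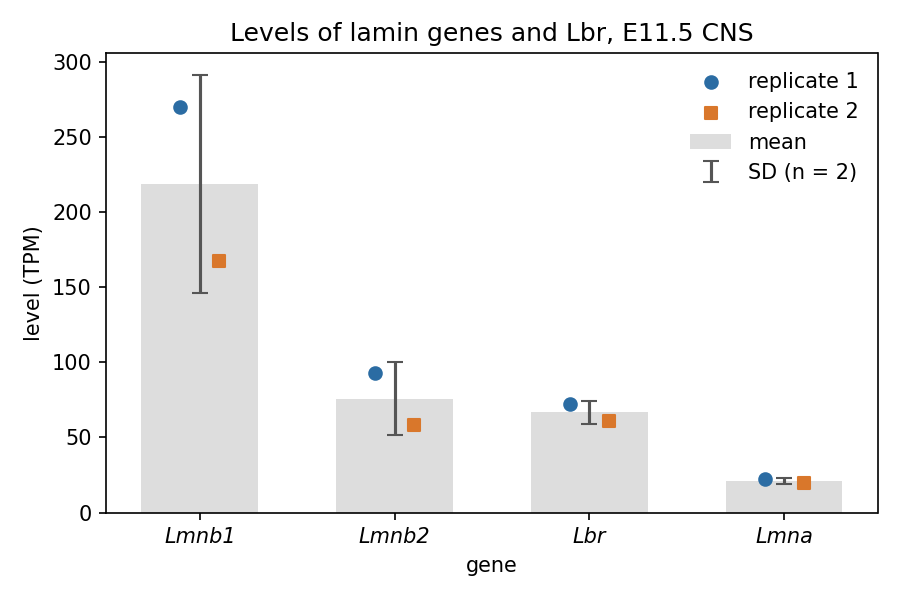
Level in TPM (vertical axis) of each of the 4 genes; circles and squares are replicates 1 and 2, bars the mean and whiskers the SD (n = 2). Lmnb1 lies at 168 TPM or above and Lmna at 22.3 TPM or below, while the points of Lmnb2 and Lbr overlap.

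Among the 13047 protein-coding genes at 1 TPM or more in both libraries, mean TPM put Lmnb1 at percentile 95.7, Lmnb2 at 84.7, Lbr at 82.2 and Lmna at 51.0. The Lmna message was thus near the middle of the expressed genes. Per length, Lmnb1 was 12.1 and 8.59 times Lmna in the 2 libraries, and Lmnb2 was 4.16 and 3.01 times Lmna. Lmnb1 was 2.91 and 2.86 times Lmnb2, so the B-type lamins kept nearly the same proportion in both libraries. Lbr was 3.23 and 3.14 times Lmna. The likeness of these 2 ratios depends on Lbr-207, which adds 23.2 TPM to Lbr in replicate 1 only.

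The 3 lamin genes together made 385 TPM in replicate 1 and 246 TPM in replicate 2. B-type lamins took 94.2% of that in replicate 1 and 92.1% in replicate 2 (93.1% ± 1.51). Lmnb1 alone took 70.1% and 68.2%, Lmnb2 24.1% and 23.9%, and Lmna 5.80% and 7.94%. The make-up differed less between the libraries than the sum did.

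A second set of tables of the same study, on build mm9 with Ensembl 65 models, gives 2 RPKM values per gene (reads scaled by gene length and library depth) that no label ties to replicate 1 or 2. They are called the first and the second value. Lmnb1 had 33.7 and 22.7 RPKM, Lmnb2 10.8 and 6.92, Lbr 5.58 and 6.49, and Lmna 3.32 and 2.93. The order of the 4 genes was the order of the mean TPM in each. Lbr was nearest to Lmnb2 in the second value and nearest to Lmna in the first.

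Read counts over exon junctions, from a deposited mm9 junction list, gave that order too. The mm9 values describe the same 2 libraries as the TPM, so the shared order is not a separate measurement. The median junction of Lmnb1 was crossed by 6128.5 reads summed over both counts, against 1691 for Lmnb2, 1139 for Lbr and 463 for Lmna. Each gene had between 10 and 13 such junctions.

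The B-type lamins were lower in replicate 2. None of the 4 genes was 2-fold apart, and only 11.4% of all genes tested were, so this does not set the 4 apart. The ratio of each gene is given on the log2 scale as replicate 2 over replicate 1, after scaling the libraries by TMM. Lmnb1 had 59198 and 31832 expected counts, a log2 ratio of -0.86 (exact 95% interval of counting error -0.88 to -0.84), which is 1.82-fold lower in replicate 2. Lmnb2 had 25020 and 13761 counts, a log2 ratio of -0.83 (-0.86 to -0.80), or 1.78-fold lower. Both intervals hold counting error alone, for the libraries at hand. The difference in either gene is far larger than counting error.

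Lmna, with 3885 and 2867 counts, had a log2 ratio of -0.41 (-0.48 to -0.34), 1.33-fold lower in replicate 2. Lbr, with 13868 and 13512 counts, had a log2 ratio of -0.01 (-0.04 to 0.03), whose interval includes 0. On the TPM scale its ratio was -0.23, and 0.32 once a short transcript listed in 1 library was left out (described below). The 0.32 still includes the annotated retained intron Lbr-203, at 3.11 and 13.7 TPM. No direction is therefore given for Lbr. Lbr overlaps Gm26004 on its own strand and Dnah14 on the other. The other members overlap no annotated gene.

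Set against all 16511 genes with at least 100 counts in sum, these ratios were within the ordinary range for Lbr and toward the low end for the B-type lamins. In the whole set, 1881 genes, or 11.4%, were at least 2-fold apart, 6.34% higher and 5.05% lower in replicate 2. With a minimum of 1000 summed counts, which each member passes, 856 of 12351 were. The quartiles of all log2 ratios were -0.35 and 0.35 around a median of -0.01. The ratio of Lmnb1 lay at percentile 7.04, Lmnb2 at 7.67, Lmna at 22.0 and Lbr at 50.1.

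Markers of the neural tissue itself were also lower in replicate 2. All 7 progenitor markers had a log2 ratio below 0, with a median of -0.90, and 2 of them passed 2-fold (Msi1, -1.17, and Sox1, -1.39). Their TPM summed to 1479 and 982. Of 8 neuron markers 6 were below 0, with a median of -0.36, and only Stmn3 passed 2-fold (-1.37). Proliferation markers had a median of -0.13, and 0 of 7 passed 2-fold, with Pcna at 392 and 417 TPM and Top2a at 402 and 265.

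Markers of tissue around the neural tube were mostly higher in replicate 2. The 10 mesenchyme markers had a median log2 ratio of 0.77, with Pdgfra (1.26) and Prrx1 (1.71) past 2-fold, though Col3a1 (-0.42), Col1a2 (-0.22) and Col1a1 (-0.86) were below 0. All 6 muscle markers were past 2-fold, with a median of 4.46. Myog was at 0.40 and 34.2 TPM and Myod1 at 0.15 and 19.4. The part of these differences in marker levels in the ratios of the lamins was not tested.

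The remaining marker lists were endothelium, erythroid, epithelium and macrophage. Their medians were 0.22 (0 of 7 past 2-fold), 0.41 (Klf1 of 6, at -1.08), 0.34 (Cldn6 and Grhl2 of 5, at 1.18 and 1.25) and -0.39 (0 of 6). Summed TPM was 186 and 236 for endothelium, 21.9 and 32.1 for epithelium and 69.8 and 63.7 for macrophages. The erythroid sum, mostly Hbb-y, was 10544 and 16580.

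**Figure D2:**
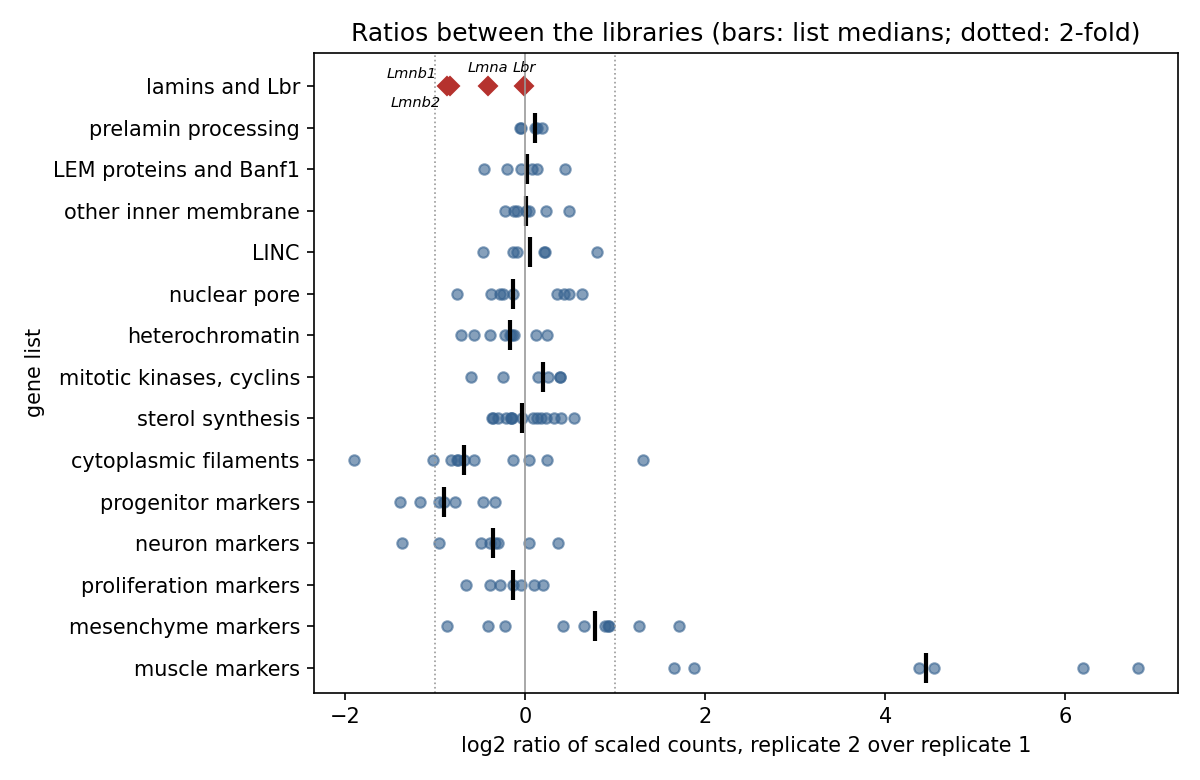
Log2 ratio of scaled counts, replicate 2 over replicate 1 (horizontal axis), for the 4 members (red diamonds) and for genes of the lists (blue points, black bars for medians); dotted lines mark 2-fold. Lmnb1 lies at -0.86, Lmnb2 at -0.83 and Lbr at -0.01. List medians were -0.90 for progenitor markers, -0.68 for cytoplasmic filaments and -0.13 for proliferation markers. Muscle markers lie to the right with a median of 4.46.

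Lmnb1 was carried mainly by its full-length message. This coding transcript, which runs over 11 exons at chr18:56707813-56753424 on the plus strand, stood at 257.5 and 163 TPM, or 95.3% and 97.1% of the gene's TPM (96.2% ± 1.28). The rest was a 659 nt transcript annotated as a retained intron, at 12.6 and 4.79 TPM. In the mm9 transcript table the full-length message had 32.8 and 18.7 RPKM and the retained intron 0.933 and 4.01, so its share was larger in the second value.

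The shorter of 2 long Lmnb2 messages was the main one in replicate 1 and about level with the longer in replicate 2. In sequence the messages differ only at their 3′ end, but their annotated coding lengths are 1788 nt (shorter) and 1845 nt (longer). The gene lies at chr10:80901203-80918245 on the minus strand. The shorter message (3370 nt) stood at 88.2 and 29.5 TPM in replicates 1 and 2, and the longer (3531 nt) at 2.44 and 27.8. Another coding transcript of 1643 nt, which starts within the gene, had 2.04 and 0.53 TPM. The shorter message thus took 94.8% and 50.3% of the gene's TPM, and the deposited bounds of its TPM, 85.0 to 88.7 and 26.1 to 33.7, do not overlap.

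The sequences of both messages are the same over 3370 nt. They part only in the last 161 nt of the 3′ UTR of the longer one, so that reads elsewhere cannot tell them apart. In that stretch, positions 3410 to 3510 match transcripts of 33 other genes at 95% identity or more over 100 nt or more. No such match was found for Lmna, Lmnb1 or Lbr. The share of the longer message, 2.62% in replicate 1 and 47.5% in replicate 2, is therefore uncertain.

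Lbr was carried mainly by its 14-exon message. Lbr-201, at chr1:181815335-181842379 on the minus strand, stood at 43.0 and 44.8 TPM, which was 59.7% and 73.2% of the gene (66.4% ± 9.54). In TPM, unlike the gene total, it was slightly higher in replicate 2. Its expected counts were 12258 and 10916, so no direction is given for this message. Lbr-203, an annotated retained intron, stood at 3.11 and 13.7 TPM.

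The short Lbr-207 was listed at 23.2 TPM in replicate 1, or 32.1% of the gene, and at 0 in replicate 2. It is 606 nt long, lies wholly within exons of Lbr-201, and differs from it in an acceptor site of exon 8 that is shifted by 30 nt. Lbr-207 had 849 expected counts in replicate 1, but the mm9 junction list holds no read over its shifted junction. The Lbr-201 junction between exons 7 and 8 had 484 and 547 reads in that list. Of the junctions that both forms share, exons 6 to 7 had 498 and 431 reads and 8 to 9 had 1992 and 608. Exons 9 to 10 had 1463 and 875, and junction 3 of Lbr-201, outside Lbr-207, had 3733 and 987. Without Lbr-207 the mean level of Lbr was 55.1 TPM in place of 66.7.

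**Figure D3:**
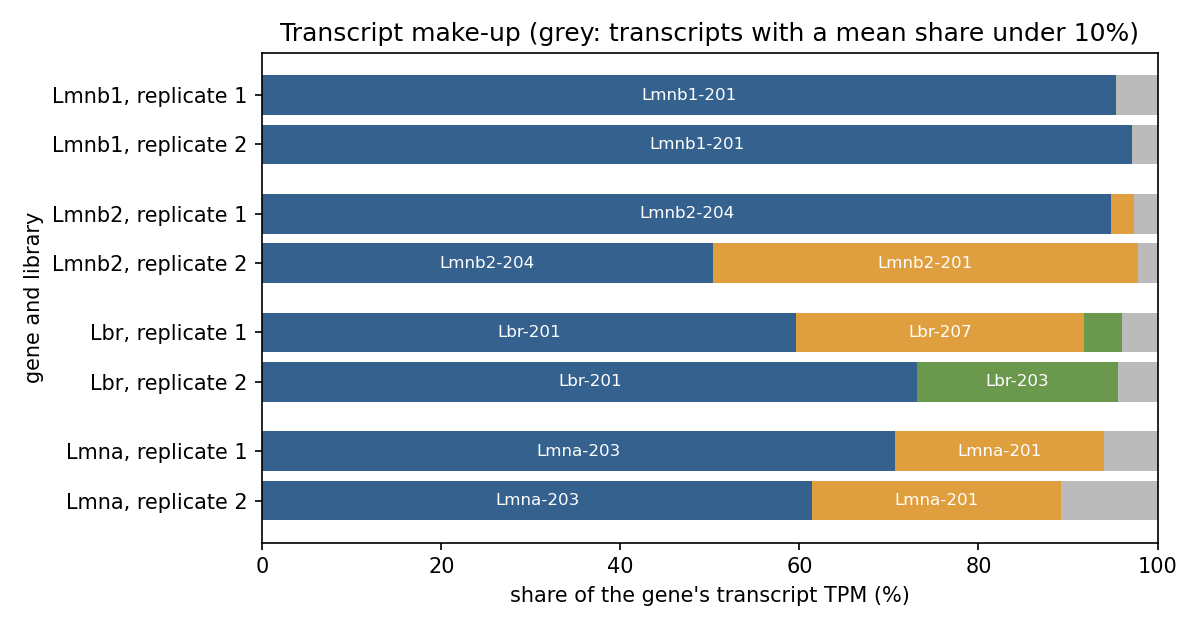
Share of each gene's transcript TPM in percent (horizontal axis) by transcript, for each gene and library; grey joins transcripts with a mean share under 10%. Lmnb1 is mainly 1 message in both libraries, and the shorter Lmnb2 message takes 94.8% in replicate 1 and 50.3% in replicate 2. Lbr-207 has a listed level in replicate 1 only, at 32.1%.

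Lamin C made up most of the Lmna message. The gene lies at chr3:88480147-88509956 on the minus strand. Lmna-203, the 10-exon lamin C message with 1722 coding nt, stood at 15.8 and 11.97 TPM. Lmna-201, the 12-exon lamin A message with 1995 coding nt, stood at 5.22 and 5.43 TPM.

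The deposited bounds were 14.7 to 16.4 and 11.0 to 12.7 TPM for lamin C and 4.73 to 5.62 and 4.83 to 5.84 for lamin A. The forms did not overlap in either library. Lamin A had nearly the same level in both, and lamin C was the form with the lower value in replicate 2. A further 10-exon coding form that ends as lamin C does, Lmna-202, was at 0.07 TPM in replicate 1 and was listed at 0 in replicate 2.

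Lamin A took 24.8% of lamin A plus lamin C in replicate 1 and 31.2% in replicate 2 (28.0% ± 4.55). Of transcript counts, which favour the longer lamin A message of 3156 nt over the 2021 nt of lamin C, it took 34.7% and 42.4%. Of the other Lmna transcripts, none had a mean of 1 TPM or more. Among them, Lmna-205, an annotated retained intron, stood at 0.61 and 0.55 TPM and Lmna-207, another, at 0.51 and 1.01 TPM.

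Reads over junctions gave a share of lamin A without a transcript model fit. In the mm9 list the lamin A message has 9 junctions that lamin C shares and 2 that lamin C lacks, from exon 10 to exon 11 and from exon 11 to exon 12. These 2 are not its alone: the noncoding Lmna-204 also uses both, and the retained intron Lmna-207 uses that from exon 11 to exon 12. The shared junctions had between 225 and 688 reads, with a mean of 492. The junction from exon 10 to exon 11 had 74 and 63 reads in the first and second count, and that from exon 11 to exon 12 had 46 and 47.

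Both lamin A junctions lay below every shared junction in each count. Their mean was 115 reads, which is 23.4% of the shared mean (21.6% in the first count and 25.7% in the second; exact 95% binomial interval on the mean read numbers 19.7% to 27.4%). PCR reads without molecular identifiers are not independent molecules, and such intervals cover counting error only. The mm9 transcript table gave a far lower share, 0.237% and 6.57% of RPKM, with lamin C at 3.02 and 2.04 RPKM, so that the deposited tables differ on how much lamin A was made.

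RNA of 200 nt or less was removed before sequencing, so mature miR-9 could not be measured. Its host genes were expressed: Mir9-3hg stood at 96.8 and 88.7 TPM and C130071C03Rik, the host of Mir9-2, at 90.6 and 83.7. The miRNA genes Mir9-2 and Mir9-3 were listed at 0, and Mir9-1 matched no row. Neither host gene passed 2-fold.

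Enzymes that process prelamin A and the B-type lamins were all present, at 14.5 to 40.9 TPM. The farnesyltransferase subunits Fnta (31.1 and 40.9 TPM) and Fntb (21.8 and 25.7) attach the lipid, and the protease Rce1 (23.6 and 26.4) trims the tail. Icmt, which methylates it, stood at 14.5 and 18.1 TPM, and Zmpste24, which cleaves prelamin A, at 15.7 and 17.3. The 5 genes had a median log2 ratio of 0.11.

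Partners of the lamina in the inner membrane were expressed over a wide range. Of the 6 genes of the LEM domain list all reached 1 TPM in both libraries, led by Banf1 (300.5 and 257 TPM), a small DNA-binding protein that LEM proteins bind. Tmpo, which encodes the lamina-associated LAP2 proteins, stood at 187 and 208 TPM and the emerin gene Emd at 56.5 and 88.3. Lemd3 was the lowest at 10.4 and 12.6. The median log2 ratio of the list was 0.02.

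Of 7 other genes of the nuclear envelope and the membranes joined to it, Tor1aip2 had the highest mean (42.2 and 78.6 TPM). Nemp1 had the lowest (11.0 and 12.2), and the median ratio was 0.01. Nrm, the gene of the multispanning protein nurim, had 52.9 and 52.4 TPM. Tor1a, an ATPase of the nuclear envelope lumen, had 47.8 and 51.4. Both were above Tor1aip2 in replicate 1.

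The LINC complex, which ties the lamina to the cytoskeleton, showed 5 of 6 members at 1 TPM or more in both libraries. The nesprin gene Syne2 stood at 61.5 and 68.5 TPM, the SUN-domain gene Sun1 at 53.7 and 51.5 and Syne4 at 37.1 and 53.8. Syne3 was the exception, at 0.46 and 0.59. The median ratio of the 6 genes was 0.06.

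All 9 nuclear pore genes reached 1 TPM, with a median ratio of -0.13. Tpr, of the pore basket, led with 159 and 149.9 TPM. Nup107, of the outer ring, had 79.2 and 53.8 TPM and Nup153, a basket protein that binds lamins, had 28.7 and 69.7. Nup210 had the lowest mean, at 12.5 and 14.2, with Nup98 below it in replicate 1 (12.2 TPM).

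Over these 5 lists, of genes of the nuclear envelope and of lamin processing, 0 of 33 passed 2-fold. The median log2 ratio was 0.01, with 16 below 0 and 17 above. The lowest was Nup107 at -0.75, and none was lower than Lmnb2. Only 1 of the 33, Banf1, had a mean level above that of Lmnb1, and 11 had a mean below that of Lmna. No test of the difference between the B-type lamins and these genes was possible with 1 library on each side.

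The nearest genes of these lists in level were taken by the smallest distance in log2(TPM + 1) over the 2 libraries. They were Nup133 and Tor1aip1 for Lmna (0.12 and 0.26), Tmpo and Banf1 for Lmnb1 (0.61 and 0.63), and Nup107 and Syne2 for Lmnb2 (0.26 and 0.63). For Lbr they were also Nup107 and Syne2, at 0.23 and 0.28. With 2 libraries, this is a likeness of level only.

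Lbr is one of a pair of C14 sterol reductases, the other being Tm7sf2. The gene total of Lbr, at 72.1 and 61.3 TPM, was higher than that of Tm7sf2, at 46.7 and 51.3, in both libraries. The full-length message Lbr-201 alone, at 43.0 and 44.8 TPM, was below the Tm7sf2 total in both, so no order of the pair is given. Each of the 15 sterol synthesis genes reached 1 TPM in either library. Their median level was 62.7 TPM and their median log2 ratio -0.04. Hmgcs1, of the first steps, led with 208 and 206 TPM, followed by Fdps (164 and 147), which makes farnesyl diphosphate. Hsd17b7 was the lowest at 12.3 and 13.3. None of the 15 passed 2-fold.

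Heterochromatin genes, some of whose products Lbr binds, were among the most abundant of the lists, with a median of 145 TPM over 9 genes. Trim28, a corepressor, led with 581 and 567 TPM. By mean level Cbx3, for HP1 gamma, followed at 277 and 217 TPM and then Cbx1, for HP1 beta, at 246 and 151. The histone H3 lysine methyltransferase gene Ehmt2 stood at 195 and 184 TPM, and Cbx5, for HP1 alpha, at 148 and 142.

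Suv39h2, which also encodes such a methyltransferase, was the lowest at 19.0 and 19.8 TPM. Of the 9 genes 7 had a log2 ratio below 0, with a median of -0.17, and none passed 2-fold.

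Kinases and cyclins that take the lamina apart in mitosis were present too. Cdk1, which phosphorylates lamins, stood at 310.0 and 353 TPM, its cyclin Ccnb1 at 223 and 224 and Ccnb2 at 77.0 and 97.7. Prkca, a kinase also known to act on lamin B1, was the lowest of the 6 at 7.42 and 5.79. The median ratio of the list was 0.20 and none passed 2-fold.

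The cytoplasmic relatives of the lamins did not share one level or one ratio. Vim, the vimentin gene of neural progenitors and mesenchyme, was higher than any lamin gene at 2643 and 1153 TPM, with a log2 ratio of -0.82. Nes, the nestin gene of neural progenitors, stood at 233 and 72.2 TPM (-1.90), and the neuronal filament genes Ina and Nefm at 176 and 119 and at 122 and 69.1. Nes and Nefm (-1.02) were more than 2-fold lower in replicate 2, and Des, the desmin gene of muscle, more than 2-fold higher (4.50 and 12.9 TPM).

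Of the 11 cytoplasmic filament genes 9 reached 1 TPM in both libraries, and the median ratio was -0.68 with 8 below 0. Gfap, the filament of mature astrocytes, was at 0.49 and 0.33 TPM. Lmnb1 was higher than every listed cytoplasmic filament gene but Vim in replicate 1 and in replicate 2.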

How the data were processed

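Per the file headers, the authors deposited for each library mm10 gene and transcript tables (GENCODE M4) with an expected count, TPM and FPKM. The deposited FPKM served only as an alternative for shares, and the percent columns were not used. The deposited bounds of TPM, a signal that is never negative, are of an unstated level. For the series the authors deposited mm9 tables (Ensembl 65) of RPKM and a junction list of read counts, per the file headers, with no label tying their first and second value to a replicate. The aligner and the quantifier were not given in the sources used here.

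Symbols, coordinates and sequences came from GENCODE M21. Expected counts were rounded, spike-ins (4.67% and 3.30% of counts) and rows with numeric identifiers (44 and 3 counts) were left out, and TMM in edgeR 4.0.16 (R 4.3.3, prior count 0.5) gave the library scaling. Size factors of DESeq2 1.42.0 were tried too. Genes with at least 100 summed counts entered the ratios, and 2-fold was the call. Fold intervals are exact 95% binomial intervals. The ratio calculation was tested on simulated data. Other steps ran in pandas 2.3.3 (Python 3.11.15).

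Members and the 19 lists (141 genes, 140 matched) were chosen with earlier results of these data known. Named were the members, their transcripts at 1 TPM or more, the 3 highest members and the lowest of each list, and genes past 2-fold. The 2 nearest genes of the envelope and processing lists were named too. Of the genes so named, 1 is left out of the text and not reported here. Marker lists are given mostly by counts and sums. Genes named beyond this were chosen after their values were seen.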

Additional observations from a re-analysis of the deposited data

How the results depend on the processing

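None of the 4 genes reached 2-fold under the alternatives run. In replicate 2 alone, Lmnb2 (58.6 TPM) stood below Lbr (61.3), and the order of the other levels was the same in either library. A ratio needs both libraries and has no value without a replicate. DESeq2 size factors gave -0.88 for the log2 ratio of Lmnb1 and TMM over genes averaging 1 CPM or more gave -0.84. Ratios from log2(TPM + 1) were -0.69 for Lmnb1, -0.66 for Lmnb2, -0.19 for Lmna and -0.23 for Lbr. With TPM rescaled to nuclear genes they were -0.64, -0.61, -0.14 and -0.18. The median of all genes was 0.12 and 0.16 on these scales, against -0.01. Rescaling put Lmna at 23.2 TPM. Without Lbr-207, an alternative chosen after seeing the data, Lbr was at 55.1 TPM with a ratio of 0.32. From counts in place of TPM, the main transcript took 99.3% of Lmnb1 and 84.6% of Lbr, lamin A took 38.6% of lamin A plus lamin C, and B-type lamins 94.8%. The lamin A junction share was 27.8% from the junction next to the split and 18.9% from the last. Genes at least 2-fold apart numbered 7033 of 24925 with no count minimum and 856 of 12351 with a minimum of 1000. No paired analysis was possible because there is only 1 group. With 2 libraries, differences between replicates and between tissue pieces cannot be told apart.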

Other observations

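Reads were spread less evenly over the junctions of these genes in the first mm9 count than in the second. In Lmnb2 the 11 junctions ranged from 490 to 5450 reads in the first count and from 452 to 1171 in the second, ratios of 11.1 and 2.59. In Lbr the 13 junctions ranged from 200 to 3733 and from 297 to 1121, ratios of 18.7 and 3.77. In Lmnb1 the ratios of highest to lowest were 5.37 and 2.74. A level read from a single junction of these genes therefore depends on the junction chosen, more so in the first count.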
